A study of Mus musculus with 4 samples.

Results

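Genes flanking P2rx7 on mouse chromosome 5 are described here by how much they differed between P2X7R knockout and wild type amygdala and by how far they lie from P2rx7. A gene was a member when the array files placed a probe for it between chr5:118134194-128134194 (mm9), 5 Mb on each side of the P2rx7 probe that starts at 123134194. Names beginning with Oas, P2rx, Kcn, Cox or Psm and ribosomal protein names (Rpl or Rps and a digit) were left out, which removed 21 of the 256 probes in the window. The scanner software flags spots that are well above background, and a probe had to carry that flag on 3 or more arrays of some group of 4. Of 153 names, 129 passed and 24 did not, among them Hcar1, Il31, Hpd and Tbx5, so the members are 129 of the 19463 genes measured. The rule used position, name and that flag and no difference between groups. In 113 members the chosen probe passed in all 4 groups, in 8 only in WT groups and in 2 (Nos1 and Hcar2) only in KO groups; a gene that passed only where it is high could not enter without a difference. Of the members, 69 lie on the centromere side of P2rx7 and 60 on the telomere side.

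P2rx7 encodes the P2X7 receptor, a cation channel opened by extracellular ATP and known in brain mainly from microglia, where it acts upstream of interleukin-1 release. DNA beside a targeted gene is inherited together with it, so genes near a knocked-out locus are often followed by distance. The members do not form a pathway: they include chromatin regulators (Kdm2b, Setd1b), calcium handling proteins (Orai1, Atp2a2), a calmodulin-dependent kinase kinase (Camkk2), subunits of the anaphase-promoting complex (Anapc5, Anapc7) and 2 receptors or channels of immune cells (Hcar2, Hvcn1).

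RNA of the whole amygdala, from 10-week-old males labelled C57BL/6J, was hybridised on 1-colour (Cy3) arrays of 60-base probes. Wild type (WT) and P2X7R -/- knockout (KO) mice received sterile saline or lipopolysaccharide (LPS) into the peritoneum and were killed 6 h later, which makes 4 groups of 4 arrays. LPS comes from the outer membrane of bacteria and sets off inflammation. The LPS dose is given as 7.5 µg per mouse and as 250 µg/kg. Which embryonic stem cell strain and which allele the KO line carries is not given in the sources used here. The labels count 4 mice per group but do not tie an array to a mouse, so p-values measure the spread between these arrays. All 8 WT arrays lay on slides 1 and 2 and were scanned in 1 session, and all 8 KO arrays lay on slides 3 and 4 in another session. Genotype and scan session therefore cannot be told apart in any KO minus WT value below. Each slide held saline and LPS arrays.

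A level is log2 of the background-subtracted spot signal minus the 75th percentile of its array, so 0 is the 75th percentile and 1 unit is a 2-fold step. That percentile was at an intensity of 581.3 to 1164.7 on the WT arrays and 345.9 to 614 on the KO arrays, and 58.1% to 71.9% of probes were well above background. A gene with several probes takes the one with the highest mean. Differences are KO minus WT, or LPS minus saline, with the standard error of a limma fit over all 16 arrays and 19463 genes. A difference is called where the Benjamini-Hochberg adjusted p over all genes is under 0.05.

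P2rx7 itself, the targeted gene, was lower in KO arrays by its brighter probe. That probe read -0.15, 0.14, 0.79 and 0.90 in the WT saline arrays, 0.15, 0.28, 0.07 and 0.70 in WT LPS, -0.80, -0.91, -1.57 and -1.09 in KO saline, and -1.08, -1.21, -1.70 and -1.43 in KO LPS. No KO array reached the level of any WT array. KO minus WT was -1.51 ± 0.25 (SE) in saline arrays (adjusted p = 0.000207) and -1.65 ± 0.25 in LPS arrays (adjusted p = 0.000105). The dimmer P2rx7 probe, which spans 123120528 to 123123413, read -4.85 to -3.20 in all WT and KO arrays and differed by 0.24 ± 0.29 after saline and 0.06 ± 0.29 after LPS, neither of them called. The brighter probe was well above background on all 4 arrays of each KO group. Which exons the KO allele lacks is not given in the sources used here. Over all genes 50.9% were called after saline and 47.2% after LPS, so the difference at the brighter probe alone cannot check the labels.

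The probes that the following results turn on are shown 5' to 3', to place each measurement on the chromosome and to show that probes of 1 gene test different stretches of its transcript. For P2rx7, Nos1 and Med13l 1 probe each is given whole (60 bases), and of the others the first 30 bases are given. Positions are mm9 as the array files list them, and a minus marks the reverse strand.
P2rx7, brighter probe, chr5:123134194-123134253, plus: ttcacttctctctttaaagggaaccatctt
P2rx7, dimmer probe, chr5:123120528-123123413, plus: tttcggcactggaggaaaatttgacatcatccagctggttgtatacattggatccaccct
Camkk2, brighter probe, chr5:123183355-123183414, minus: ttttttaatgggtataattatagtcaggaa
Camkk2, dimmer probe, chr5:123181525-123181584, minus: aacctttctaggcgcaggataacatctgtg
Kdm2b, brightest probe, chr5:123321352-123321411, minus: ctaagcttggtgtttttatcagtagttttt
Kdm2b, adjoining probe, chr5:123321411-123321470, minus: ctttagaagacactccaattggaaaggaag
Kdm2b, distant probe, chr5:123391040-123397754, minus: acctttttcatcccttccggttggatccat
TC1664123, chr5:123534994-123535053, plus: ggtttggtttttgttgggtatttatgtcta
Hrk, chr5:118634638-118634697, plus: ccccagtgctatttagctatatatatacaa
Nos1, chr5:118402834-118402893, plus: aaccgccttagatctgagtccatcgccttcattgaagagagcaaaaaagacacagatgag
Hcar2, chr5:124313731-124313790, minus: cccaggagggactgaactcagtgctggaga
Hvcn1, chr5:122691981-122692040, plus: tcagtgctcacaaataaaacctgtcaggct

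The members differed between genotypes about as often as the rest of the array. After saline 65 of 129 members were called, 50.4%, against 50.9% of all genes. Of these, 41 were higher in KO (31.8%, against 28.6% of all genes) and 24 lower (18.6%, against 22.3%). After LPS 58 members were called, 45%, against 47.2% of all genes, with 34 higher (26.4%, against 25.9%) and 24 lower (18.6%, against 21.2%). In both treatments and with the same sign 45 members were called (34.9%, against 37.4%), 28 higher (21.7%, against 21.4%) and 17 lower (13.2%, against 16%), none in opposite directions (against 0.128%), and 51 were called in neither (39.5%, against 39.5%). The lists by role used below were drawn up with earlier results of these data known. Both comparisons use separate arrays of each genotype but the same 2 scan sessions. At 2-fold or more 33 members were called after saline (25.6%, against 29.7%) and 26 after LPS (20.2%, against 26.7%).

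The sizes of the differences were also those of the array as a whole. The median absolute difference of the members was 0.66 after saline and 0.60 after LPS, against 0.66 and 0.62 over all genes. The median signed difference was 0.18 after saline and 0.02 after LPS, against 0.07 and 0.05 over all genes. In 51 members (39.5%, against 46.1% of all genes) the 4 KO saline arrays lay apart from the 4 WT saline arrays, and in 71 (55%, against 51.9%) the LPS arrays did. In 35 members (27.1%, against 29.7%) all 8 KO arrays lay apart from all 8 WT arrays. Without arrays 1 and 2 of the WT saline group, which share slide 1 and stood apart from arrays 3 and 4 in several members named here, 45 members were called after saline (34.9%, against 35.8% of all genes in the same fit).

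Lists of cell type markers held called genotype differences as well. Over all genes 50.9% were called after saline and 47.2% after LPS. All 4 striatal markers were lower in KO after saline and 3 of the 4 after LPS. Their levels were summed on the linear scale, where the 75th percentile of an array is 1. The sums ran from 2.80 to 8.10 over the WT arrays and from 1.79 to 2.76 over the KO arrays. Of 3 blood genes 2 were higher after saline and 1 after LPS, with sums of 21.5 to 35.3 and 39.4 to 112.1. Of 7 amygdala markers 2 were lower and 5 not called, with sums of 37.5 to 55.1 and 41.1 to 54.9, and all 7 were well above background on every array. Of 4 microglial markers 1 was higher after saline and 1 higher and 1 lower after LPS, with sums of 4.01 to 7.57 and 5.92 to 12.2. Of 5 neuronal markers 2 were higher and 2 lower after saline and 3 higher and 1 lower after LPS, and their sums did not overlap (83.6 to 136.8 in WT and 147.3 to 178.6 in KO). Of 4 astrocyte markers 2 were higher and 1 lower in both treatments (22.8 to 36.9 and 36.7 to 50.6). Of 4 oligodendrocyte markers 3 were lower in both and 1 was higher after LPS (45.9 to 114.8 and 51.8 to 69.8). Of 4 hippocampal markers 1 was higher in both treatments (19.8 to 57.7 and 19.5 to 30.7). Of 3 endothelial markers 1 was higher and 1 lower after saline and 1 lower after LPS (12.8 to 20.8 and 5.86 to 32.4), and of 3 choroid plexus markers 2 were lower after LPS (0.275 to 2.51 and 0.304 to 0.631). In whole tissue, fewer cells of a type and less RNA per cell cannot be told apart. The part of these differences in the members' values was not tested.

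**Figure D1:**
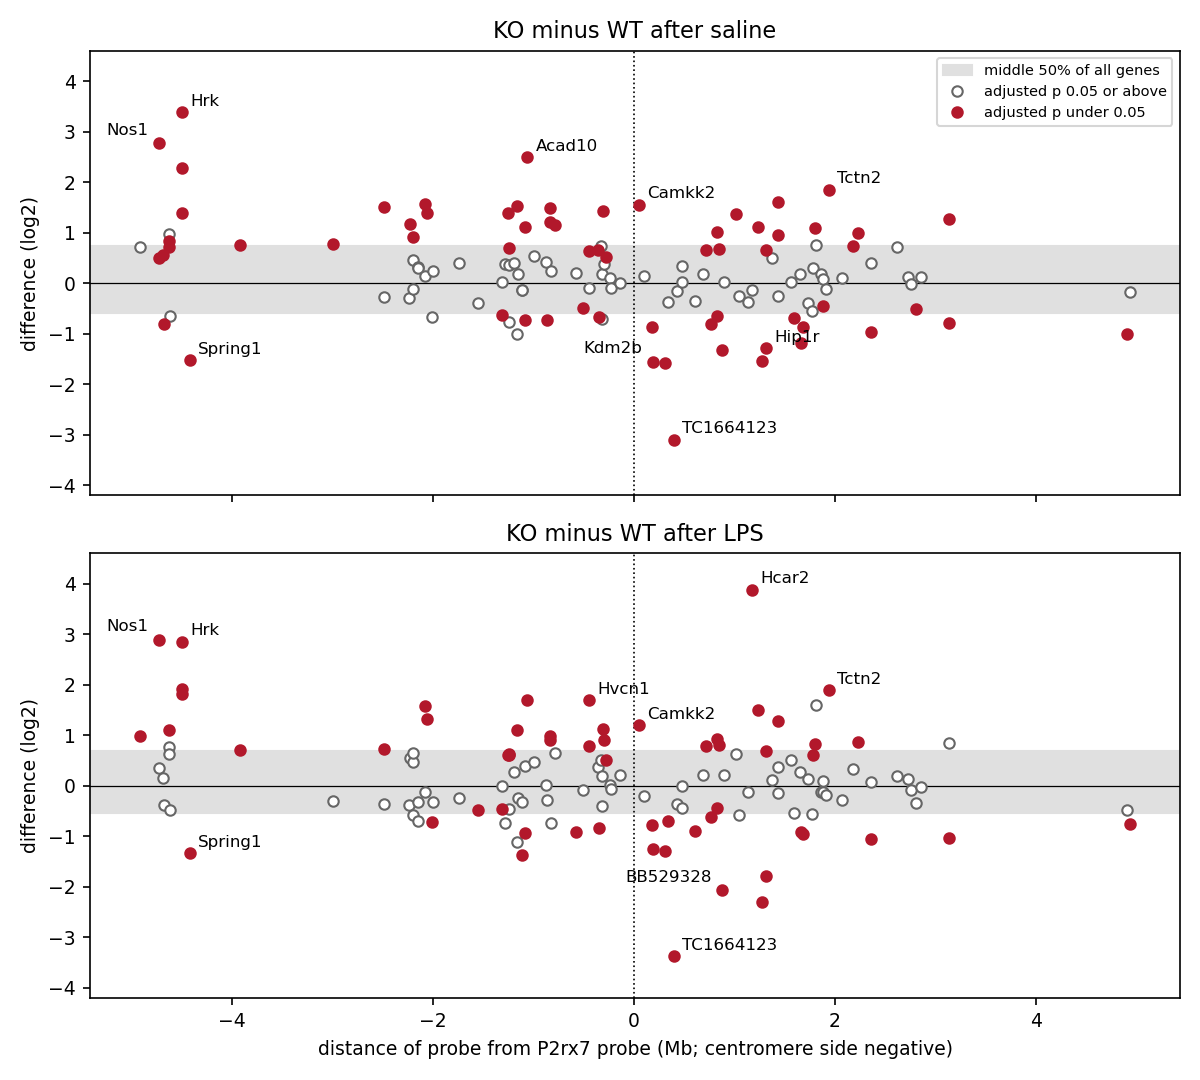
KO minus WT difference (log2) of the 129 members after saline (upper panel) and after LPS (lower panel) against the distance of each probe from the P2rx7 probe, in Mb, with the centromere side negative. Filled points have an adjusted p under 0.05 and the grey band holds the middle 50% of all 19463 genes; called members lie in every 1 Mb bin, with Hrk (3.38) and TC1664123 (-3.10) at the extremes after saline.

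By distance, the share of members called showed no steady fall away from P2rx7. After saline it was 21 of 41 within 1 Mb (51.2%), 20 of 45 at 1 to 2 Mb (44.4%), 10 of 25 at 2 to 3 Mb (40%), 3 of 3 at 3 to 4 Mb and 11 of 15 at 4 to 5 Mb (73.3%). After LPS it was 22 of 41 (53.7%), 20 of 45 (44.4%), 6 of 25 (24%), 2 of 3 and 8 of 15 (53.3%). On the rest of chromosome 5, 49.8% of 1119 genes were called after saline and 46.2% after LPS. In 14 other 10-Mb stretches of chromosome 5 with enough genes, the share ran from 30% to 67.6% after saline and from 36.7% to 67.6% after LPS, a range that holds the values of the window. The bin at 3 to 4 Mb has too few genes to read a share from.

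The size of the difference followed distance as loosely as its call did. The median absolute difference after saline was 0.64 within 1 Mb, 0.56 at 1 to 2 Mb, 0.47 at 2 to 3 Mb and 0.83 at 4 to 5 Mb. After LPS these medians were 0.65, 0.57, 0.36 and 0.77. Across the 129 genes, which are not independent replicates and share the same arrays, the absolute difference and the distance had a Spearman correlation of 0.12 after saline and -0.0015 after LPS. On the telomere side within 1 Mb, 13 of 19 members were called after LPS (68.4%), 9 of them lower in KO. On the centromere side 9 of 22 were called (40.9%), 7 of them higher. After saline 11 of 19 were called on the telomere side (57.9%), 7 of them lower. On the centromere side 10 of 22 were called after saline (45.5%), 7 of them higher. Over all genes 50.9% were called after saline and 47.2% after LPS. At the edges of the window the outermost members were Ksr2 (0.72 after saline, 0.98 after LPS) and Slc15a4 (-0.17 and -0.75), and the nearest genes outside it were Rfc5 (0.46 and 0.34) and a transcript listed as ENSMUST00000094293 (0.22 and 0.21).

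**Figure D2:**
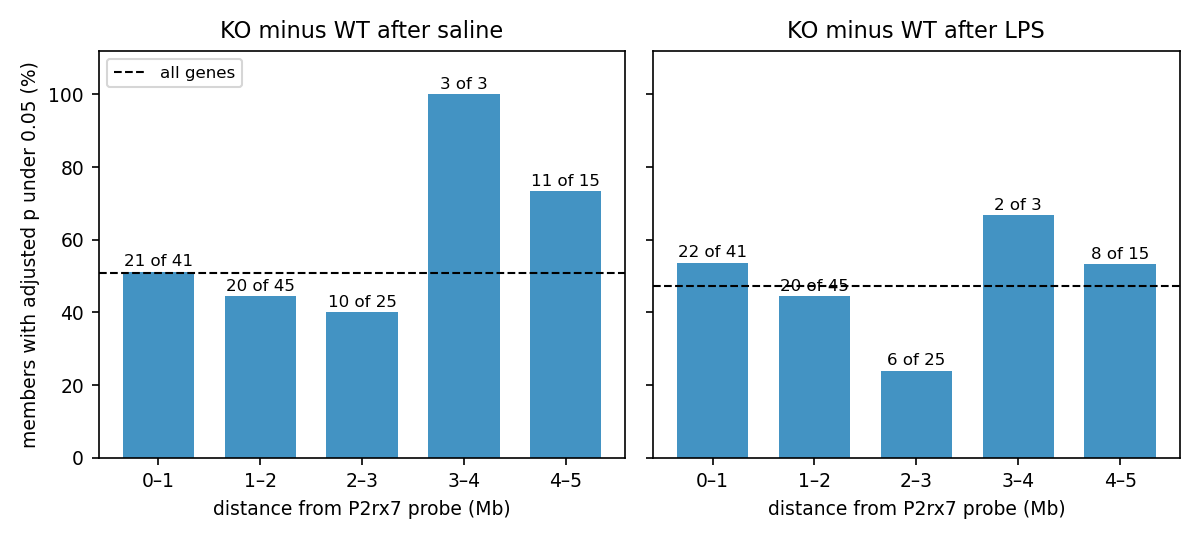
Percentage of members with an adjusted p under 0.05 for KO minus WT in bins of 1 Mb from the P2rx7 probe, both sides together, after saline (left) and after LPS (right). Numbers above the bars give members called of members in the bin, and the dashed line is the share over all genes (50.9% and 47.2%); the bins up to 3 Mb lie near or below the line.

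The 23 members within 0.5 Mb of P2rx7 were mixed. After saline 5 were higher in KO, 5 lower and 13 not called, and after LPS 6 were higher, 6 lower and 11 not called. These are 43.5% and 52.2% called, against 50.9% and 47.2% of all genes. On the centromere side, in chromosome order, these were Tctn1, Hvcn1, Pptc7, Rad9b, BC106120, Vps29, Fam216a, AK028245, Gpn3, Arpc3, Anapc7, Atp2a2 and Ift81. On the telomere side they were Camkk2, Anapc5, Rnf34, Kdm2b, A930024E05Rik, Orai1, TC1664123, Tmem120b, Setd1b and 9430025N12. Several names, such as TC1664123 and AK028245, are those of the array design for transcripts with no gene symbol here.

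Camkk2, the calcium/calmodulin-dependent kinase kinase that phosphorylates AMP-activated kinase, was the nearest member, 49 kb from the P2rx7 probe, and was higher in KO. It read 2.53, 1.87, 2.96 and 2.81 in WT saline, 2.55, 2.37, 2.93 and 2.60 in WT LPS, 4.49, 3.99, 3.89 and 4.03 in KO saline, and 3.65, 3.75, 3.76 and 4.10 in KO LPS. All 8 KO arrays lay above all 8 WT arrays. The difference was 1.56 ± 0.23 after saline, a 2.94-fold step (adjusted p = 6.64e-05), and 1.20 ± 0.23 after LPS (adjusted p = 0.00055). Its dimmer probe, 1 of the 2 shown above, differed by 0.24 ± 0.23 and -0.19 ± 0.23, neither called. With the mean of both probes the difference was 0.90 and 0.51, still called in both treatments.

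Rnf34 and Kdm2b, whose probes lie 2.65 kb apart on opposite strands, were both lower in KO. Rnf34, an E3 ubiquitin ligase, read 3.04, 3.43, 3.09 and 3.10 in WT saline, 3.14, 3.02, 3.12 and 3.02 in WT LPS, 2.22, 2.21, 2.41 and 2.36 in KO saline, and 2.14, 2.62, 2.16 and 2.29 in KO LPS. The genotypes did not overlap, and the difference was -0.87 ± 0.15 after saline (adjusted p = 0.000247) and -0.77 ± 0.15 after LPS (adjusted p = 0.000632). Kdm2b, a histone H3 lysine demethylase that recruits Polycomb proteins to unmethylated CpG islands, read -0.47, -0.28, -0.10 and -0.06 in WT saline, -0.45, 0.001, -0.17 and -0.34 in WT LPS, -2.65, -1.38, -1.98 and -1.12 in KO saline, and -1.02, -1.44, -1.75 and -1.77 in KO LPS. Here too every KO array lay below every WT array.

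The 3 Kdm2b probes did not give 1 value. The brightest differed by -1.55 ± 0.28 after saline (adjusted p = 0.000349) and -1.26 ± 0.28 after LPS (adjusted p = 0.00182). The adjoining probe, which shares 1 base position with it, had a WT saline mean of -3.45 against -0.23 and differed by -0.43 ± 0.41 and -0.16 ± 0.41, not called. The distant probe differed by -0.31 ± 0.20 after saline, not called, and by -0.80 ± 0.20 after LPS (adjusted p = 0.00368). All 3 were negative in both treatments, and their mean differed by -0.76 and -0.74, both called.

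The transcript TC1664123, 400.8 kb from P2rx7, was lower in KO. It read -2.09, -1.98, -2.26 and -2.19 in WT saline, -2.29, -2.33, -2.41 and -2.86 in WT LPS, -4.76, -5.23, -5.87 and -5.06 in KO saline, and -6.01, -5.87, -5.64 and -5.87 in KO LPS. It was well above background on all 8 WT arrays and on none of the 8 KO arrays, so it passed the filter through WT alone. Set against the dimmest signal that counts as well above background on the KO arrays, WT was at least 6.93-fold higher after saline (adjusted p = 7.79e-08) and at least 5.62-fold higher after LPS (adjusted p = 3.83e-08). For these bounds, each KO array counted at that dimmest signal or at its measured signal for the probe, taking the larger. Both adjusted p-values are of the fitted difference and not of the bounds. The probe entered through the WT arrays, the high side, so they are no separate support. With normexp background correction the fitted difference was -0.28 after saline, no longer called, and -1.02 after LPS, still called.

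Another transcript without a gene symbol, A930024E05Rik at 310 kb, was also lower: WT saline was at least 1.76-fold above KO saline, where no array was well above background. It too passed the filter through WT alone. Its fit gave -1.58 ± 0.39 with saline and -1.29 ± 0.39 with LPS, and normexp turned the former to 0.94. Rad9b, a paralogue of a checkpoint clamp subunit, was not well above background on any KO array, like TC1664123 passed the filter through WT alone, and was at least 1.45-fold lower after saline and 1.40-fold lower after LPS, with its direction turned by normexp (1.18 and 0.20). Without KO saline array 2 or WT saline array 1 or 2 its fitted saline difference was -0.58 to -0.57 and not called.

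Other members within 0.5 Mb were called in 1 treatment or both. AK028245 was higher in KO by 1.42 and 1.13, and was no longer called after LPS with normexp (0.58). Tctn1, a transition zone protein of primary cilia, was higher by 0.64 ± 0.24 and 0.79 ± 0.24, a call that ended in 10 alternatives after saline and 4 after LPS, with 0.47 to 0.60 after saline without array 1 or 2 of WT or 1 or 4 of KO. Arpc3, a subunit of the actin-nucleating Arp2/3 complex, was higher by 0.52 and 0.51, a call lost under quantile scaling (0.22 and 0.32). Pptc7, a mitochondrial phosphatase, was higher by 0.66 after saline (adjusted p = 0.0275) and differed by 0.38 after LPS, not called. These values are of its brighter probe. With the mean of its 2 probes the differences of Pptc7 were larger, at 1.11 and 1.01. The saline call of Pptc7 ended without array 1 or 2 of either genotype (0.48 to 0.63). Gpn3, a GTPase of RNA polymerase assembly, was higher by 0.90 after LPS (adjusted p = 0.000901) and differed by 0.39 after saline, not called. Orai1, the pore of the store-operated calcium channel, was lower, at -0.69 after LPS (adjusted p = 0.0173) and differed by -0.38 after saline, not called. Without WT LPS array 3 the LPS difference of Orai1 was -0.59 and not called.

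For some close neighbours of P2rx7 the brightest probe differed by little while another probe was called. Anapc7 differed by 0.10 ± 0.20 and 0.02 ± 0.20, Anapc5 by 0.15 and -0.20, and Atp2a2, the calcium pump of the endoplasmic reticulum, by -0.10 and -0.07. But the dimmer Anapc7 probe was higher by 1.06 and 1.47, and the dimmer Anapc5 probe by 0.62 and 0.45. The other Atp2a2 probes were lower, at -0.79 and -1.98 after saline and -0.83 and -1.86 after LPS. Vps29, a retromer subunit, differed by 0.17 and 0.20, with 1 of its other 3 probes lower after saline (-0.79) and 1 after LPS (-0.75). Setd1b, a histone H3 lysine 4 methyltransferase, differed by 0.33 and -0.01, and its other probe was not called. Ift81, the nearest member on the centromere side, differed by -0.01 ± 0.27 after saline, where 1 WT array was dropped as an outlier spot, and by 0.21 ± 0.25 after LPS. Of its 2 other probes 1 was lower (-0.57 and -0.98). Fam216a (-0.71 and -0.41), BC106120 (0.73 and 0.50), Tmem120b (-0.16 and -0.36) and 9430025N12 (0.02 and -0.44) were not called in either treatment.

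**Figure D3:**
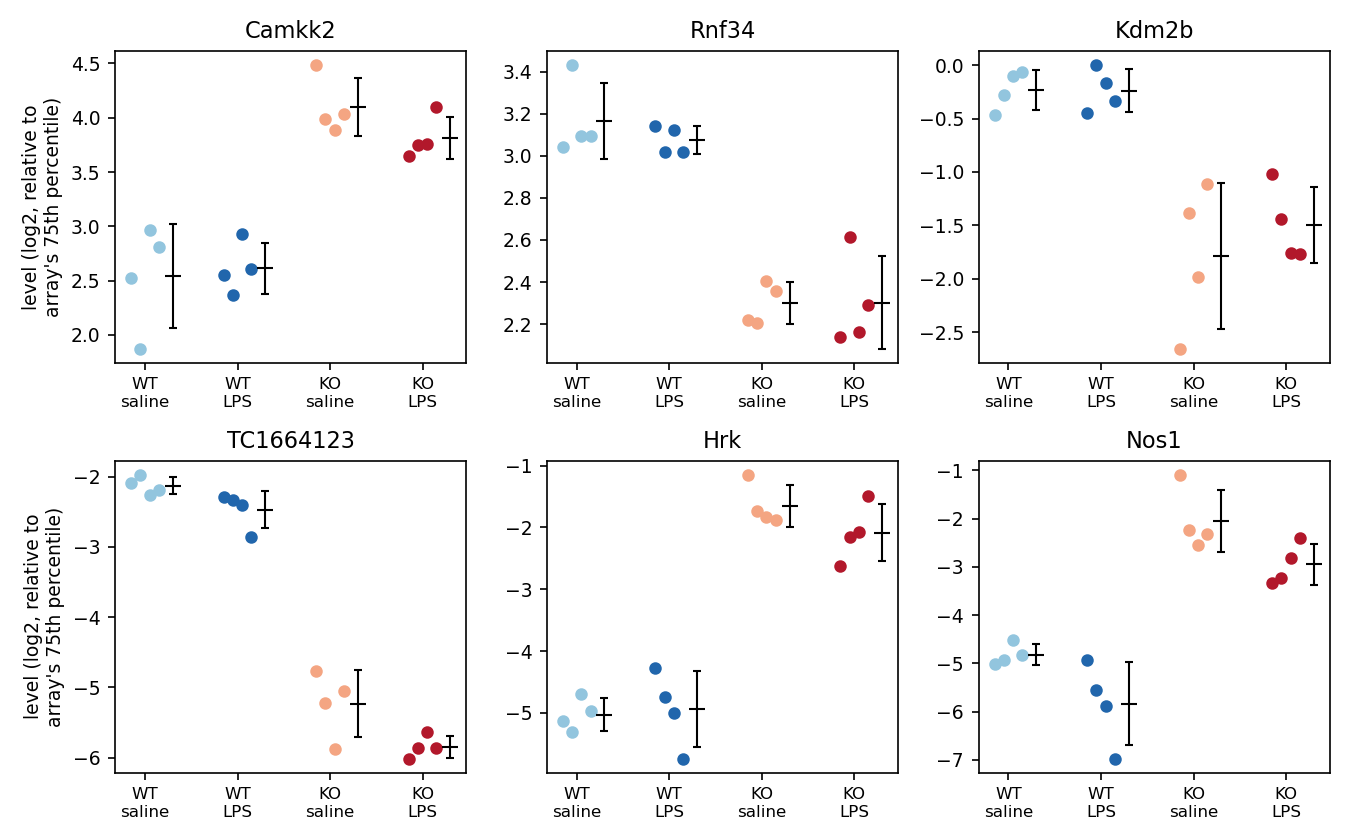
Level (log2, relative to the array's 75th percentile) of 6 members on each of the 16 arrays, 4 per group; the bar beside the points is the mean ± SD. The vertical scale differs between panels. In each panel the 8 KO arrays lie apart from the 8 WT arrays, above for Camkk2, Hrk and Nos1 and below for Rnf34, Kdm2b and TC1664123.

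Several large increases in KO lay farther off, about 4.5 to 4.7 Mb on the centromere side. Hrk (harakiri), a BH3-only protein that promotes neuronal apoptosis, read -5.14, -5.31, -4.70 and -4.96 in WT saline, -4.27, -4.74, -5.0 and -5.74 in WT LPS, -1.15, -1.73, -1.84 and -1.88 in KO saline, and -2.62, -2.15, -2.07 and -1.5 in KO LPS. The difference was 3.38 ± 0.30 after saline, a 10.4-fold step (adjusted p = 7.39e-07), and 2.85 ± 0.30 after LPS (adjusted p = 4.1e-06). With normexp it was 2.14 and 1.45, still called. Hrk was well above background on all 4 WT saline arrays, 3 of 4 WT LPS arrays and all 4 arrays of each KO group. Its fold thus rests on dim WT signals. A probe with no gene name, A_51_P191116, lay 4.3 kb from it on the other strand and was higher by 1.38 and 1.81. Rnft2, a RING finger membrane protein, 6.29 kb from the Hrk probe and also on the minus strand, was higher by 2.28 ± 0.28 and 1.91 ± 0.28.

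Nos1, the neuronal nitric oxide synthase, 231.8 kb from the Hrk probe, was higher in KO as well. It read -5.02, -4.93, -4.51 and -4.84 in WT saline, -4.94, -5.54, -5.89 and -6.98 in WT LPS, -1.09, -2.24, -2.55 and -2.31 in KO saline, and -3.34, -3.22, -2.81 and -2.41 in KO LPS. It was well above background on 2 of 4 WT saline and 1 of 4 WT LPS arrays and on all 8 KO arrays, so it passed the filter through KO alone and its fold rests on dim WT signals. KO exceeded WT by 2.77 ± 0.38 with saline (adjusted p = 4.39e-05) and by 2.89 ± 0.38 with LPS (adjusted p = 3.21e-05). Because Nos1 entered through the high side of these differences, the adjusted p-values are no separate support for them. With normexp the values were 2.09 and 1.33, still called. Spring1, a Golgi regulator of SREBP processing that lies 77.86 kb from the Hrk probe, was lower, at -1.53 and -1.33, and was called in neither treatment with normexp (-0.031 and -0.60). So the stretch held large differences of both signs.

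Between 0.8 and 2.1 Mb other members stood out. Acad10, of the acyl-CoA dehydrogenase family, was higher by 2.5 ± 0.32 after saline and 1.69 ± 0.32 after LPS. Tctn2, another tectonic protein of the ciliary transition zone, read -0.74 to -0.21 over the WT arrays and 1.11 to 1.64 over the KO arrays, and was higher by 1.85 ± 0.17 (adjusted p = 9.11e-07) and 1.90 ± 0.17 (adjusted p = 8.35e-07). Iqcd was higher by 1.58 in both treatments. Hip1r, which links clathrin coats to actin, was lower, at -1.28 ± 0.25 and -1.80 ± 0.25. Cdk2ap1 was lower, at -1.19 and -0.93, but its call after LPS was lost in 17 of 33 alternatives, and without KO saline array 4 its saline difference was -0.76. BB529328 was lower, at -1.32 and -2.07, and not called after saline with normexp (-0.13). NAP058531-1 had fitted differences of -1.54 and -2.30, was not well above background on any KO array, and turned to 1.18 after saline with normexp, so no fold is given.

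Among the 31 named members that were called in both treatments with the same sign, 12 kept that call in every alternative in which they had a value: Hrk, Nos1, Rnft2, A_51_P191116, Acad10, Iqcd, Ddx54, Camkk2, Rnf34, Kdm2b, Hip1r and Tctn2. The other 19 lost the call or turned in at least 1 alternative. Named members include the largest differences of these same data, so keeping a call was partly set by how they were chosen. Nos1 moreover passed the filter through KO alone, where it is high. The share of all genes that kept such calls was not computed. No alternative separates genotype from scan session. Kntc1 (-0.37 and -0.13) and Sds (-0.12 and -0.59) each had a KO group in which no array was well above background and were not called, and ENSMUST00000111776 was at least 1.10-fold lower in KO after saline, with normexp turning it to 1.12, called higher. At the other end, the members with the smallest mean genotype difference were Trafd1 (95% interval -0.52 to 0.55 after saline and -0.53 to 0.53 after LPS), Tpcn1 (-0.29 to 0.88 and -0.90 to 0.26) and Rita1 (-0.47 to 0.77 and -0.74 to 0.50). These values are of the brightest probe alone. The other Trafd1 probe was lower, at -1.88 and -1.89, and the other Tpcn1 probe was higher by 1.80 and 0.94, all called, while Rita1 has 1 probe.

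Grouped by role, no list of members moved in 1 direction throughout. Over all genes 28.6% were called higher and 22.3% lower after saline, and 25.9% and 21.2% after LPS. Of 16 members in vesicle traffic, cytoskeleton and lysosome, 6 were higher after saline and 7 after LPS, with 1 lower each time (Hip1r) and medians of 0.39 and 0.36, against 0.07 and 0.05 over all genes. Besides Tctn2 the higher ones included Vps33a, a tethering subunit for lysosomal fusion (0.67 and 0.81). Rilpl1, which binds Rab GTPases, differed by 0.76 and 1.59 and was not called. Of 11 members in RNA processing and translation, 5 were higher and 1 lower after saline, and 4 higher and none lower after LPS. Ddx54, a DEAD-box RNA helicase, was higher by 1.38 and 1.31, Denr, a factor of translation re-initiation, by 1.10 and 1.5, and Arl6ip4 by 1.61 and 1.28. Denr and Vps33a each had another probe that was called lower after saline. Arl6ip4 was no longer called after saline without the 2 WT saline arrays of slide 1 (0.69), stood at 0.99 without array 1 alone, and lost its LPS call without any 1 of the 4 KO LPS arrays or of WT LPS arrays 1 and 3 (1.05 to 1.34).

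Of 15 chromatin and transcription regulators, 3 were higher and 4 lower after saline, and 2 higher and 4 lower after LPS, where 50.9% and 47.2% of all genes were called in either direction. Besides Kdm2b and Cdk2ap1, Sbno1 was lower, at -0.87 (-0.68 and not called without WT saline array 1) and -0.96, while the zinc finger protein Zfp664 was higher by 1.0 and 0.86. Of 10 ubiquitin ligases and subunits of the anaphase-promoting complex, 1 was higher and 2 lower after saline, and 2 higher and 1 lower after LPS. Fbxo21 was lower, at -0.81 after saline (adjusted p = 0.0437), a call lost in 19 of 33 alternatives (-0.38 without KO saline array 4), and Fbxw8 differed by -0.65 and -0.48, not called. Of 10 kinases, phosphatases and adaptors, 3 were higher and 2 lower after saline and 2 and 2 after LPS. Ksr2, a scaffold of Ras signalling, differed by 0.72 after saline, not called, and was higher by 0.98 after LPS. Rasal1, which switches Ras off, differed by -0.67 after saline (adjusted p = 0.0502) and was lower, at -0.73 after LPS (adjusted p = 0.0369). Each of these LPS calls ended in 7 of the fits that left out 1 array (0.87 to 1.03 for Ksr2 and -0.77 to -0.64 for Rasal1), all of them LPS arrays.

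The next lists are short, and the same shares of all genes apply (28.6% higher and 22.3% lower after saline, 25.9% and 21.2% after LPS). Of 8 members in calcium entry, storage and binding, 3 were higher after saline (Nos1, Camkk2 and Tesc), and after LPS 2 were higher (Nos1 and Camkk2) and 2 lower (Orai1 and the myosin light chain Myl2). Tesc, a calcium-binding protein, was higher by 0.83 after saline (0.63 to 0.71 and not called without KO array 1 or WT array 3 or 4) and differed by 0.63 after LPS, not called. Of 7 members in mitochondrial and lipid metabolism, 2 were higher and 1 lower after saline, and 1 and 1 after LPS. Besides Acad10, the lipid transfer protein Pitpnm2 was higher by 0.96 after saline (adjusted p = 0.0479), a call lost in 20 of 33 alternatives (0.55 without KO saline array 1), and Scarb1, a lipoprotein receptor, differed by 0.71 and 0.19, not called. The last list, of 5 members, was drawn up for surface receptors, ligands and stress proteins but also held the apoptosis protein Hrk. Of these 5, 1 was higher (Hrk) and 2 lower after saline, and 2 were higher (Hrk and Hcar2) and 1 lower after LPS. Tmem132b was lower, at -0.78 and -1.03, its saline call ending without KO array 1 or WT array 2 (-0.68 to -0.66), and Tmem132c, a membrane protein of the same family, was lower, at -1.01 after saline and turned to 1.17 with normexp.

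Probes of the same gene often disagreed on the direction, and this was as common on the array as a whole. Of the 44 members with several kept probes, all probes had 1 sign in 19 after saline (43.2%, against 49.2% of 6330 genes with several probes) and in 23 after LPS (52.3%, against 49.2%). In 8 members after saline (18.2%, against 14.6%) and 6 after LPS (13.6%, against 13.5%) 2 probes were called in opposite directions. In Diablo, Med13l and Zcchc8 (6.82%, against 9.05%) this held in both treatments. Their probes are shown because the chosen probe decides the sign of the gene.
Diablo, brighter probe, chr5:123962170-123962229, minus: cacacccttaagttcagtagctgtttaact
Diablo, dimmer probe, chr5:123966190-123966249, minus: ctgtaagatactagaaggactaagtagaac
Med13l, brightest probe, chr5:119213829-119213888, plus: ccataggaatattgtttcaaagaaatagtg
Med13l, opposite probe, chr5:119207100-119207158, plus: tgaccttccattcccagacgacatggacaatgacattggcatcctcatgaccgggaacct
Zcchc8, brightest probe, chr5:124149929-124149988, minus: caattttaaattcacatttcaatttcaaca
Zcchc8, opposite probe, chr5:124148376-124148435, minus: ctctattaaggtataaattataccattttt
Zcchc8, most distant probe, chr5:124164684-124166996, minus: caaagcaataccaccaagaaatagaggagt

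Diablo, a mitochondrial protein that relieves the block on caspases, was lower by its brighter probe (-0.66 ± 0.16 after saline and -0.44 ± 0.16 after LPS, the LPS call ending in 5 of the fits without 1 array, -0.44 to -0.38) and higher by its dimmer one (0.96 ± 0.16 and 1.02 ± 0.16). Med13l, a subunit of the Mediator kinase module, was higher by its brightest probe (0.75 ± 0.14 and 0.71 ± 0.14) and lower by the opposite one (-1.93 ± 0.29 and -1.83 ± 0.29). Its remaining probe differed by 0.17 and -0.01, not called. Zcchc8, of the complex that hands nuclear RNA to the exosome, was higher by its brightest probe after saline (1.37 ± 0.48), but not called without WT saline array 1 (0.76) or KO saline array 1 (1.28). It was lower by the opposite probe (-1.66 ± 0.29 and -1.78 ± 0.29) and higher by the most distant one (2.44 ± 0.32 and 2.14 ± 0.32). The opposite and most distant Zcchc8 probes have a GC content of 30% and 35%, and the opposite and brightest Med13l probes 51.7% and 36.7%.

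**Figure D4:**
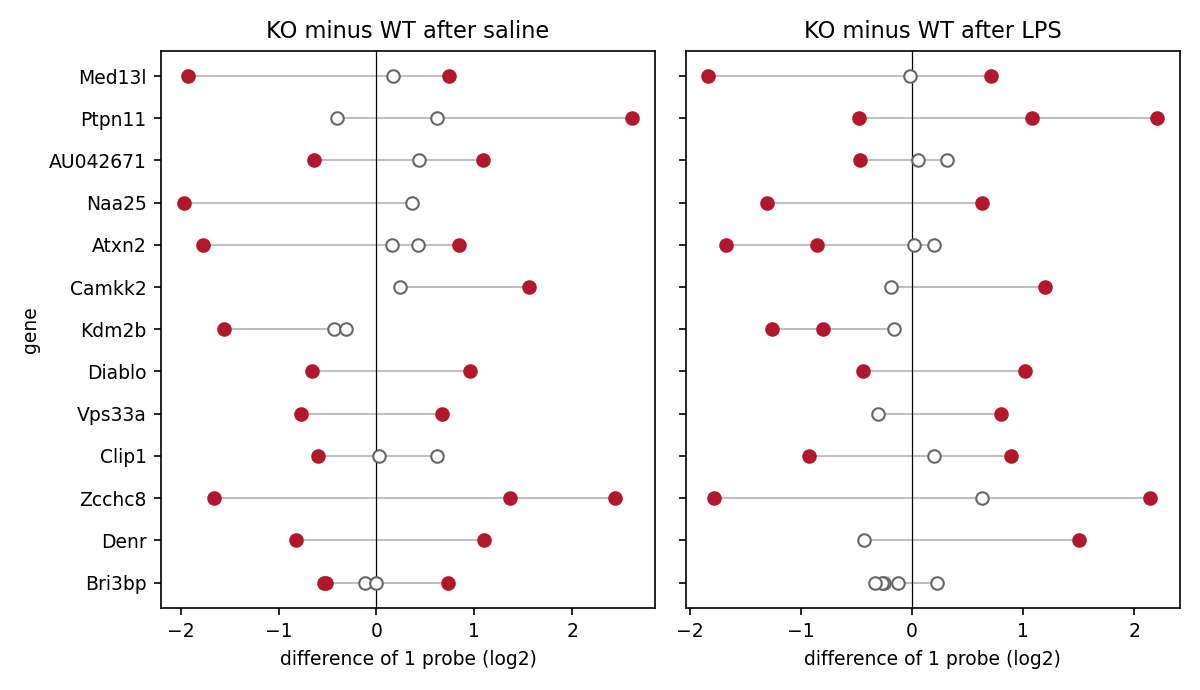
KO minus WT difference (log2) of each kept probe, after saline (left) and after LPS (right), for the members with 2 probes called in opposite directions in either treatment and for Camkk2 and Kdm2b, 13 genes in chromosome order. Filled points have an adjusted p under 0.05 over all probes and a line joins the probes of 1 gene; the probes of Diablo, Med13l and Zcchc8 lie on both sides of 0 in both panels.

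LPS moved few members at 6 h. In WT none of the 129 was called by limma, against 0.0103% of all genes (2 genes), and 5 had an unadjusted p under 0.05 (3.88%, against 6.6%): Hcar2, Nos1, A_51_P191116, NAP123224-1 and 1700051K22Rik. In KO 1 member was called, 0.775% against 3.64% of all genes, and 17 had an unadjusted p under 0.05 (13.2%, against 14.5%). By the limma interaction test, of a different response in the genotypes, no member was called, against 0.036% of all genes, and 8 members had an unadjusted p under 0.05 (6.2%, against 6.9%). The median difference of the members was -0.0036 in WT and -0.14 in KO, against -0.04 and -0.093 over all genes.

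The called member was Hcar2, the receptor for niacin and hydroxybutyrate on neutrophils, macrophages and microglia, 1.18 Mb from P2rx7. It read -5.05, -6.60, -7.74 and -7.69 in WT saline, -5.57, -4.12, -4.37 and -5.70 in WT LPS, -6.60, -7.00, -7.10 and -6.91 in KO saline, and -1.21, -1.05, -1.08 and -0.91 in KO LPS. The 4 KO LPS arrays stood far above all 12 others. It was well above background on no saline array, on 2 of 4 WT LPS arrays and on all 4 KO LPS arrays. LPS raised it at least 14.5-fold in KO (adjusted p = 2.67e-05, of the fitted difference). The gene passed the filter through the KO LPS group alone, so that adjusted p is no separate support. In WT the bound was at least 1.73-fold (adjusted p = 0.431). The fitted interaction was 4.01 ± 0.69 and not called (adjusted p = 0.0677), and since neither saline group was above background its size is not a measured one.

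After LPS the level of Hcar2 was higher in KO than in WT by 3.88 ± 0.49 (adjusted p = 2e-05), with WT well above background on 2 of 4 arrays. Hcar2 passed the filter through the KO LPS arrays alone, the high side of this difference. The adjusted p is therefore no separate support for it. The other values here are fitted ones against saline arrays below background and serve only to compare settings. All KO arrays gave 5.84 for LPS minus saline, within slide 3 alone it was 5.86 and within slide 4 alone 5.82, both called. Without slide 3 it was 5.82 (adjusted p = 0.0526) and without slide 4 it was 5.86 (adjusted p = 0.0798). Under normexp it shrank to 1.0 (adjusted p = 0.0588). Array 1 of WT saline, at -5.05, weighed on the WT value: without it the WT difference was 2.40 (adjusted p = 0.0488), and without slide 1 it was 2.80 (adjusted p = 0.00213). The interaction was called in 6 alternatives, with values from 4.01 to 4.99, among them both slide blocks and the fits without WT LPS array 2 (4.28) or WT saline array 4 (4.32).

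Hvcn1, the voltage-gated proton channel of phagocytes and B cells, 0.44 Mb from P2rx7, was higher in KO after LPS without being called in the LPS comparisons. It read -1.21, -1.29, -2.57 and -2.75 in WT saline, -2.91, -2.05, -2.0 and -2.81 in WT LPS, -1.54, -2.23, -2.16 and -2.26 in KO saline, and -0.95, -0.94, -1.19 and 0.12 in KO LPS. The WT saline arrays fell in pairs by slide, with arrays 1 and 2 above the KO saline arrays and arrays 3 and 4 below them. KO exceeded WT after LPS by 1.70 ± 0.38 (adjusted p = 0.00199) and differed by -0.10 ± 0.38 after saline, not called. LPS minus saline in KO was 1.31 ± 0.38 (adjusted p = 0.0772), and with slide as a fixed block its adjusted p was 0.0376. The interaction was 1.79 ± 0.54 (adjusted p = 0.397).

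**Figure D5:**
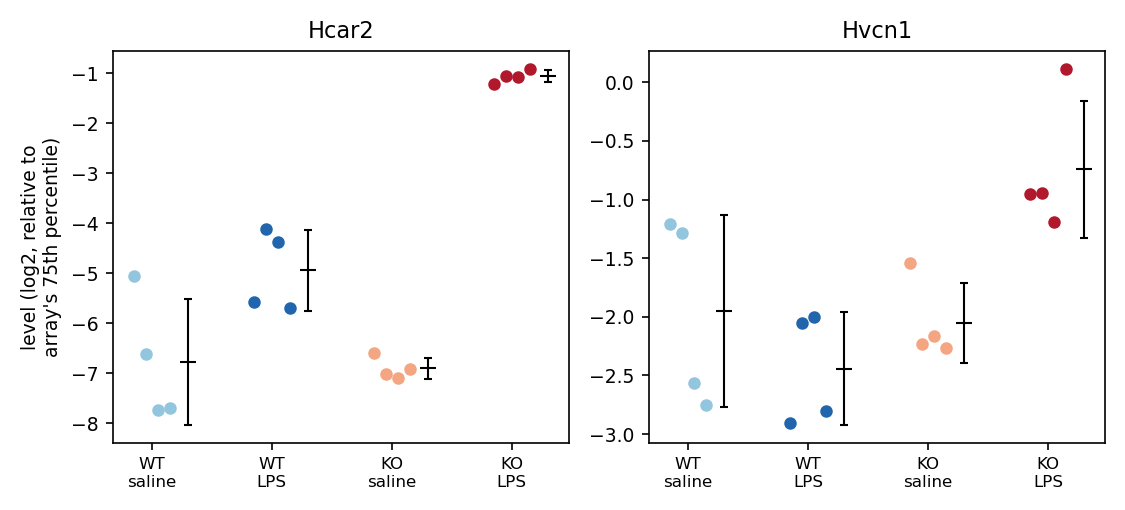
Level (log2, relative to the array's 75th percentile) of Hcar2 (left) and Hvcn1 (right) on each of the 16 arrays, with the mean ± SD of each group of 4 beside the points; the vertical scale differs between panels. The 4 KO LPS arrays of Hcar2 lie between -1.21 and -0.91, and those of Hvcn1 between -1.19 and 0.12, above every other array of the same gene.

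The authors' deposited table lists log2 group means for 114 of the 129 members. Of those called after saline, 56 are in the authors' deposited table and all 56 have the same sign there, and of those called after LPS 50 of 50 do. That table comes from the same arrays and is no independent measurement.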

How the data were processed

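Each deposited array file holds spot intensity, per the file headers, as written by Feature Extraction 9.5 (named in the submitters' processing notes). A deposited table holds log2 group means by the authors, with its scaling not given in the sources used here, and was used only for comparison; 32 columns of detection calls were not used. From the background-subtracted intensity, log2 minus each array's 75th percentile was taken, control and outlier spots were dropped, and spots of a probe were averaged. Of 41174 probes, 28347 were well above background on at least 3 of 4 arrays of a group. A model of the 4 group means was fitted over 16 arrays with limma 3.58.1 (lmFit, eBayes) in R 4.3.3, with Benjamini-Hochberg adjustment over 19463 genes, and was tested on simulated data. Symbols came from RefSeq (92 members) or the files (37 members); sequences and mm9 positions came from the files. The number of arrays limits the precision.

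The members and the lists were chosen with earlier results of these data known. Named genes are members within 0.5 Mb, the 8 largest differences in each direction called in both treatments, the 8 largest called LPS or interaction differences, members with probes called in opposite directions in both treatments, up to 4 of each list, members below background in a whole group, and the 3 smallest differences. Alternatives changed the background correction, scaling, filter, probe choice, slide, spread, bins, replicate block and arrays used.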

Additional observations from a re-analysis of the deposited data

Results flagged for a closer look

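In 17 of 247 groups of 4 arrays tested, 1 array lay far from the other 3, by a rule that chance meets in about 1 group in 20. All values are levels (log2, relative to the array's 75th percentile), and the causes were not tested. KO saline array 1 was the distant one in 7 of them. It read -1.54 for Hvcn1 (others -2.26 to -2.16), 0.49 for Tmem120b (-1.42 to -1.12), -2.11 for BB529328 (-3.95 to -3.76) and 3.4 for Pitpnm2 (1.68 to 1.83). It read 4.40 for Ddx54 (3.37 to 3.39), 3.44 for Trafd1 (2.14 to 2.29) and -0.24 for Rita1 (-1.67 to -1.56). This array also had the highest median level of the members, 0.76, against 0.28 at the lowest KO array.

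Other KO arrays were KO saline 4 for Fbxo21 (2.89, others 4.51 to 4.64), KO LPS 2 for AK028245 (-4.61, others -4.06 to -3.97) and KO LPS 4 for 9430025N12 (0.47, others -0.45 to -0.43). Among WT saline arrays, array 2 was high for Rnf34 (3.43, others 3.04 to 3.10) and 9430025N12 (0.70, others 0.36 to 0.38), and array 1 was low for Zcchc8 (-3.92, others -1.60 to -1.26). Among WT LPS arrays, array 1 was high for Rad9b (-3.86, others -4.64 to -4.58). Array 4 was low for Vps29 (3.56, others 3.87 to 3.92) and high for Fam216a (4.66, others 4.42 to 4.43). Array 3 was low for Rilpl1 (-2.61, others 0.93 to 1.55).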

How the results depend on the processing

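Genotype and scan session cannot be told apart, and signal over background limits dim members. With normexp background correction 19 named members turned sign in at least 1 comparison. Not all were dim: Vps29 read 3.56 to 4.47 over the arrays and Trafd1 2.14 to 3.44. The part of dim signal in these turns was not tested. Normexp also moved the median difference of all genes to 0.44 after saline and 0.15 after LPS, from 0.07 and 0.05. Members called by genotype numbered 45 to 84 after saline and 41 to 67 after LPS over the alternatives that kept every array or left out a slide or a pair. After saline these ends are 34.9% and 65.1%, against 35.8% and 61.2% of all genes in the same fits. After LPS they are 31.8%, against 33.4% without slide 1 and 33.1% without slide 3, and 51.9%, against 47.1%. Without 1 array the counts were 54 to 64 and 49 to 68. The lowest are 41.9%, against 43.9% of all genes, and 38%, against 40.7%. The highest after LPS is 52.7%, against 55.7%. The higher share of the members' genotype calls, 63.1% and 58.6%, was 72.6% and 58.7% with normexp, 55.2% and 51.6% with quantile scaling and 50.9% and 52.9% without slide 4. P2rx7 ran from -1.94 to -0.63 and from -1.84 to -0.79, and from -1.70 to -1.35 and -1.74 to -1.52 without 1 array. The percentage of members called within 1 Mb ran from 39.0 to 65.9 after saline. After LPS it fell to 31.7 without slide 1 and 34.1 without slide 3. In the same fits the share of all genes called after LPS fell to 33.4% and 33.1%, from 47.2% with all arrays. Without 1 array the percentages of members called within 1 Mb were 43.9 to 51.2 and 43.9 to 56.1.

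The count of members called for LPS in KO was 0 with normexp, 0 with probes well above background on all 16 arrays (which leaves out Hcar2), 3 with slide as a random block and 4 as a fixed block. The 3 and 4 members are 2.33% and 3.1%. Over all genes these fits called 2.18%, 3.31%, 4.85% and 4.82%. Within slide 3 alone the count was 4 (3.1%, against 4.53% of all genes). It was 2 (1.55%) without slide 1, slide 2 or WT saline arrays 1 and 2, against 5.02%, 4.51% and 4.9%. Without slide 3 or slide 4 it was 0, where 0.00514% and 0% of all genes were called. The interaction count was 1 (0.775%) with quantile scaling or with slide as a random or fixed block, against 0.0565%, 0.0873% and 0.0822% of all genes. Without slide 2 it was 2 (1.55%, against 3%). For LPS in WT the count was 1 without slide 1 (0.775%, against 2.12% of all genes) and 3 without WT saline arrays 1 and 2 (2.33%, against 3.14%). Without 1 array the counts were 0 to 1 in WT, 1 to 4 in KO (3 without KO saline array 3 and 4 without KO LPS array 4) and 0 to 1 for the interaction. The 3 and 4 members are 2.33% and 3.1%, against 2.74% and 3.88% of all genes. The 1 in WT, without WT saline array 1, is 0.775%, against 0.0257%. For the interaction, 0.775% stood against 0.036% without WT saline array 4 and 0.0565% without WT LPS array 2. Causes were not tested.

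Array numbers did not pair the samples: deviations of same-numbered arrays correlated from -0.38 to 0.34 over 24 pairs, 2 of them above 0.1. With the array number as a replicate block, 62 members were called after saline (48.1%, against 48% of all genes) and 56 after LPS (43.4%, against 44.1%). For LPS, 0 were called in WT (against 0%) and 1 in KO (0.775%, against 2.96%). The interaction had 0 (against 0%), and Ift81 turned to 0.078 after saline.

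Signs of single members that turned are given with their values. With normexp these were Hvcn1 0.68, Rad9b 1.18, Vps29 -0.50, Ift81 0.13, A930024E05Rik 0.94, Orai1 0.68, Tmem120b 0.38, Setd1b -0.19, 9430025N12 -0.096, NAP058531-1 1.18, Hcar2 1.61, Fbxw8 0.044, Tmem132c 1.17, ENSMUST00000111776 1.12, Kntc1 1.20, Sds 1.24, Trafd1 -0.69 and Tpcn1 -0.28 after saline. After LPS they were Rad9b 0.20, Vps29 -0.097, Anapc5 0.019, Tmem132c 0.25, ENSMUST00000111776 0.063, Kntc1 0.25 and Sds 0.27. Several of the turned saline values were called by limma with the new sign. Among them were Hcar2 (adjusted p = 0.00117), Tmem132c (adjusted p = 0.00526), Kntc1 (adjusted p = 0.00617), Rad9b (adjusted p = 0.0069) and Sds (adjusted p = 0.00702). Not all had been near 0: A930024E05Rik had been at -1.58, NAP058531-1 at -1.54 and Tmem132c at -1.01. Quantile scaling turned Vps29 -0.14, Anapc5 -0.55, 9430025N12 -0.0080 and Trafd1 -0.12 after saline, and Vps29 -0.0028 and Anapc7 -0.034 after LPS. Median scaling turned Trafd1 0.0025 after LPS. Adjusting for probe GC turned Hvcn1 0.27, Anapc7 -0.059, Atp2a2 0.26, Ift81 0.32, Trafd1 -0.22 and Rita1 -0.014 after saline, and Anapc7 -0.11 and Atp2a2 0.23 after LPS. The mean of all probes turned Vps29 -0.19, Ift81 0.025, Diablo 0.15, Med13l -0.34, Vps33a -0.051 and Trafd1 -0.93 after saline, and Vps29 -0.065, Ift81 -0.20, Anapc5 0.12, Diablo 0.29, Med13l -0.38 and Tpcn1 0.31 after LPS. The authors' deposited group means turned Ift81 0.42 after saline.

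Without slide 1, and likewise without WT saline arrays 1 and 2, the turned values after saline were Hvcn1 0.61, Vps29 -0.097, Ift81 0.25, Hcar2 0.81, Ksr2 -0.072, Tpcn1 -0.14 and Rita1 -0.20. Hvcn1 for LPS in WT was 0.23 without slide 1, 0.23 within slide 2 alone and 0.22 without those WT arrays, and Anapc5 0.024 and Setd1b 0.088 turned after LPS without slide 1. Without slide 2 they were Atp2a2 0.22, 9430025N12 -0.064, Sds 0.19 and Trafd1 -0.019 after saline, and Anapc7 -0.14, Kntc1 0.10 and Trafd1 0.089 after LPS. Without slide 3 they were Hvcn1 0.067, Tmem120b 0.23 and Sds 0.17 after saline, and Anapc7 -0.015, Atp2a2 0.052, Setd1b 0.0038 and Trafd1 0.17 after LPS. Without slide 4 they were Anapc7 -0.040, Ift81 0.014, Anapc5 -0.12, Setd1b -0.0046, 9430025N12 -0.080, Trafd1 -0.28 and Rita1 -0.18 after saline, and Pitpnm2 -0.041 after LPS. Leaving out 1 array gave, after saline, Hvcn1 -0.36 to 0.15, 9430025N12 -0.051 to 0.10, Hcar2 -0.45 to 0.44, Trafd1 -0.29 to 0.14, Ift81 -0.21 to 0.25, Rita1 -0.20 to 0.28, Atp2a2 -0.25 to 0.035, Sds -0.27 to 0.21, Anapc7 -0.11 to 0.22, Anapc5 -0.060 to 0.25 and Tmem120b -0.60 to 0.033. After LPS it gave Ift81 -0.047 to 0.37, Setd1b -0.15 to 0.12, Anapc7 -0.037 to 0.13, Trafd1 -0.13 to 0.070 and Pitpnm2 -0.019 to 0.57. Of the single-member values, 3765 kept direction and side of the threshold, 204 lost a call, 88 gained one and 132 turned. Gene starts from the reference, which is of another build, were not run.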
